A study of Bos taurus with 52 samples.

Results

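Trophoblast Kunitz domain proteins (TKDPs) are secreted proteins made by the trophectoderm of ruminant and other even-toed ungulate conceptuses. TKDP1 (gene 404076), TKDP2 (gene 503553), TKDP3 and TKDP4 (gene 404075) were looked up by name in the deposited gene table of bovine RNA sequencing reads. TKDP1, TKDP2 and TKDP4 were rows of it, so 3 of the 4 named genes were measured among 31651 named genes in all, and TKDP3 was not analysed here. All 3 passed the filter on low counts in the conceptus comparisons. TKDP genes are close copies of each other, so a read can be assigned to the wrong member, and how the authors counted reads that match several copies is not stated in the labels or notes.

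A Kunitz domain is a short, disulfide-bonded fold best known from pancreatic trypsin inhibitor, where an exposed loop sits in the active site of a serine protease and blocks it. TKDPs join such a domain to extra N-terminal segments and are released from the trophoblast during the elongation of the conceptus, before it attaches to the uterus. In the same days the mononuclear trophectoderm secretes interferon tau, the signal by which a ruminant conceptus maintains the corpus luteum.

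Day 17 conceptuses came from pregnant heifers (Bos taurus) whose class of fertility had been set as high fertile (HF) or subfertile (SF). Their libraries fell into 10 SF conceptuses, 10 HF conceptuses classed as long and 7 HF conceptuses classed as short. SF conceptuses carried no class of size. Breed, age and embryo origin are not stated in the labels. Of the 27 conceptuses, 20 had a length in their titles: 9 SF conceptuses, the shortest of 1.5 cm, 5 HF long ones of 9 to 17 cm and 6 HF short ones of 1.2 to 6.9 cm. Recipients numbered 19, with 7 in SF, 10 in HF long and 6 in HF short, and 8 of them gave 2 conceptuses each, so the libraries of a group were not all independent. Depth was 20.5 to 47 M reads per library in SF, 22.9 to 39.8 M in HF long and 27.1 to 39.5 M in HF short conceptuses. Descriptions named 2 sample sheets, and the second held 3 SF and 4 HF short libraries but no HF long one. Endometrium gave 25 further libraries of 17.1 to 27.3 M reads, 5 from each of 5 groups: pregnant HF and SF heifers, and non-pregnant heifers of the HF, SF and infertile (IF) classes.

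TKDP transcripts were found in every conceptus and were at the edge of detection in endometrium, pregnant or not. The lowest count of TKDP1 in a conceptus was 122679 reads, that of TKDP4 was 5538 and that of TKDP2 was 31. In the 25 endometrium libraries the highest count was 2 reads for TKDP1, 1 for TKDP4 and 1 for TKDP2. Of these libraries 22 had no read of TKDP1, 19 none of TKDP4 and 21 none of TKDP2. A count of 0 allows 3 reads, or up to 0.176 CPM (counts scaled to the size of the library) at the lowest endometrial depth, for counting error only. The labelled tissues were checked by their markers. The summed level of 13 trophectoderm genes, among them the keratins KRT8 and KRT18, was 11980 to 43590 CPM in conceptuses and 418.2 to 642.4 CPM in endometrium. The stromal proteoglycan DCN was 2334 to 3744 CPM in endometrium and at most 3.05 CPM in conceptuses, and the summed level of 10 uterine genes was 1.17 to 141 CPM there against 2715 to 4388 CPM in endometrium. PAEP, a glandular secretory protein of that list, was at 0 in all conceptuses but was at most 0.0438 CPM in endometrium too. Conceptus and endometrium RNA had been extracted with different reagents, and no test between the tissues was made.

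TKDP1 was one of the most frequent transcripts of the conceptus. It took 0.314% to 4.51% of the reads of a library, with a median of 3.12%, and ranked first by read count among named genes in 8 of 27 libraries (reads are not divided by transcript length). In the 10 SF conceptuses TKDP1 lay between 8960 and 35620 CPM with a median of 27910 CPM. The 10 HF long conceptuses spanned 29300 to 45020 CPM around a median of 39730 CPM, the narrowest spread of the 3 groups. HF short conceptuses ran from 2845 to 43750 CPM with a median of 25480 CPM.

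HF long conceptuses thus sat high and close together in TKDP1, while each of the other groups held both high and low libraries. In all, 7 of 10 HF long conceptuses had more TKDP1 than any SF conceptus, and the HF long value was the higher one in 91 of 100 pairs of an SF and an HF long library. The groups still overlapped. Such counts were made for the TKDP genes only, so no share over all genes stands beside them. They also take no account of the sample sheet. The second sheet held 3 SF libraries but no HF long one, and its median of TKDP1 was 9891 CPM against 34910 CPM on the first. With the sheet as covariate TKDP1 was not called in SF against HF long (adjusted p = 0.537 in edgeR's quasi-likelihood test). Over all libraries the highest TKDP1 value was 15.8 times the lowest, and the standard deviation of its log2 level was 0.914, which 4.54% of 9898 genes averaging 5 CPM or more exceeded.

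Most of the low end of TKDP1 was held by very small conceptuses. TKDP1 was 2845 CPM at 1.2 cm, 9115 and 8960 CPM in both conceptuses of 1.5 cm and 9891 CPM at 1.7 cm, and the next lowest was SF replicate 3 at 20000 CPM. Not every very small conceptus was low, as one of 1.3 cm had 23120 CPM and one of 2 cm had 27280 CPM. Interferon tau (IFNT2) was 878, 1499, 2477 and 4095 CPM in the 4 low libraries, in order of length with the HF conceptus of 1.5 cm first, against 14740 CPM in the conceptus of 1.3 cm. That last value was the highest of all conceptuses. Low IFNT2 was not confined to the 4 libraries. SF replicates 2, 3 and 7 had IFNT2 at 1763, 3191 and 3842 CPM, with TKDP1 at 34630, 20000 and 27280 CPM. The summed trophectoderm markers of the 4 low libraries, a list that includes IFNT2, were 13950, 11980, 16330 and 23140 CPM, each below the median of 32690 CPM over all conceptuses. A sum below that median also occurred with high TKDP1. HF long replicate 8, highest in TKDP1 at 45020 CPM, had a sum of 20040 CPM. All 4 low libraries were on the second sample sheet, where the median of TKDP1 was 9891 CPM in 7 libraries against 34910 CPM in the 20 libraries of the first. The part of the marker levels or of the sheet in these values was not tested.

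TKDP4 was less steady. Its reads made up 0.022% to 2.21% of a library with a median of 0.117%. SF conceptuses had 226.7 to 4901 CPM with a median of 620 CPM. HF long conceptuses had 460 to 23690 CPM with a median of 2527 CPM. HF short conceptuses had 203.7 to 11590 CPM with a median of 717 CPM.

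The high TKDP4 values belonged to a minority of HF conceptuses. Those above every SF conceptus were HF long replicates 8, 6, 9 and 2, at 23690, 14430, 13910 and 6590 CPM, and HF short replicates 6 and 1, at 11590 and 8639 CPM. The remaining HF libraries lay inside the SF range, apart from HF short replicate 4 just under it. Within SF, replicates 5 and 6 were highest at 4901 and 4359 CPM, and both came from one uterus. TKDP4 spanned 116-fold over the 27 libraries, and its log2 standard deviation of 2.07 was exceeded by 0.263% of the 9898 genes.

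TKDP2 was low in most conceptuses and high in a few. SF conceptuses had 0.809 to 6.31 CPM with a median of 3.83 CPM. HF long conceptuses had 3.32 to 1060 CPM with a median of 5.12 CPM, and HF short conceptuses had 2.65 to 27.8 CPM with a median of 12.2 CPM. At least 10 CPM was reached in 4 HF long and 4 HF short conceptuses and in 0 SF conceptuses.

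The HF long libraries over 10 CPM in TKDP2 were replicate 8 at 1060 CPM, replicate 9 at 191 CPM, replicate 6 at 170 CPM and replicate 2 at 15.6 CPM, the same 4 that were highest in TKDP4. The HF short ones were replicate 5 at 27.8 CPM, replicate 6 at 24.1 CPM, replicate 4 at 18.9 CPM and replicate 1 at 12.2 CPM. Replicates 4 and 5, of 1.2 and 1.5 cm and from one uterus, combined this TKDP2 level with TKDP4 at 203.7 and 354 CPM, among the lowest. Their 9.28 and 7.86 TKDP2 reads per 100 TKDP4 reads were the highest of all libraries, against 4.48 in HF long replicate 8 and a minimum of 0.103. Where few TKDP2 reads stand beside many reads of its close copies, misassigned reads could make up part of them, and this was not tested.

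**Figure D1:**
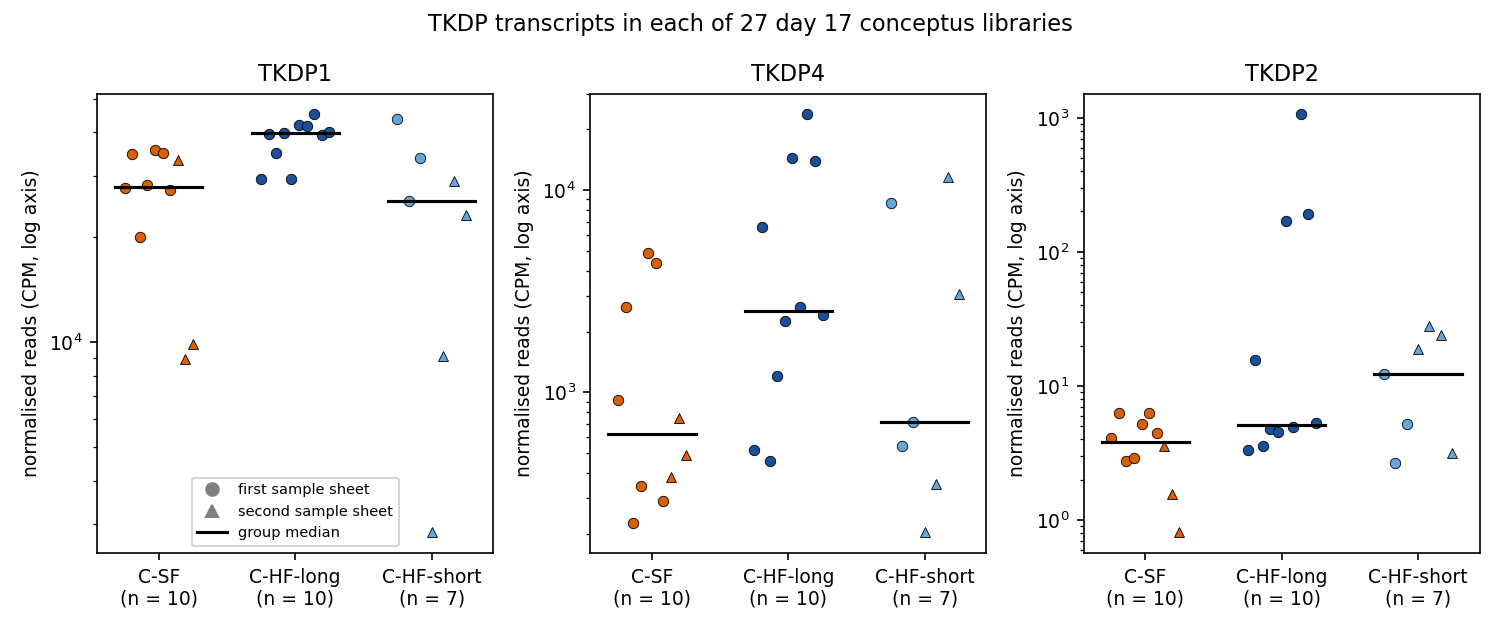
Normalised read counts (CPM, log axis) of TKDP1, TKDP4 and TKDP2 in each conceptus library by group. Circles are libraries of the first sample sheet, triangles those of the second, and bars are group medians. TKDP1 of HF long conceptuses clusters between 29300 and 45020 CPM, while TKDP2 is above 100 CPM in 3 HF long libraries only.

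HF long replicate 8, at 17 cm the longest of the 20 conceptuses with a length, held the highest value of each of the 3 genes. It was also the 1 library with reads of CSH2, the placental lactogen of binucleate trophoblast cells (12 reads), and it had 40 reads of the prolactin-related protein PRP3. The summed binucleate cell markers, a list without PRP3, were 3.09 CPM there and 0.27 to 1.62 CPM in the other conceptuses. In endometrium the same sum was 0.854 to 3.63 CPM. PAG1 of that list went the other way, with 6 reads in HF long replicate 8 and its lowest level of all conceptuses there, 0.215 CPM. PRP2 and PRP9 of the list were at 0 in all conceptuses. The noncoding RNAs RN7SL1 and RMRP took 8.55% of the reads of HF long replicate 8 and 6.52% in HF long replicate 9. These were the highest of all conceptuses, where the range was 1.5% to 8.55%. Whether these features bear on the TKDP values was not tested.

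The main comparison asked whether conceptuses of SF heifers differed from those of HF heifers. TKDP2 was lower in SF conceptuses than in all HF conceptuses, by a log2 fold change of -4.24 ± 1.07 (SE; 95% interval -6.44 to -2.03; adjusted p = 0.0188 in edgeR's quasi-likelihood test over all genes). TKDP4 had a log2 fold change of -1.90 ± 0.75 (interval -3.44 to -0.36) and did not pass (adjusted p = 0.111). TKDP1 had -0.19 ± 0.24 (interval -0.69 to 0.31; adjusted p = 0.656). So 1 of 3 genes was called lower and 0 were called higher, where 4.16% of the 15678 genes tested were called lower, 3.64% higher and 7.79% in either direction. In bulk RNA, fewer cells that express a gene and less RNA per cell cannot be told apart.

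Against HF long conceptuses alone the fold change of TKDP2 was larger. It was -5.28 ± 1.09 on the log2 scale (interval -7.50 to -3.05; adjusted p = 0.00928), with 4 of 10 HF long libraries above every SF library and the HF long value higher in 77 of 100 library pairs. This fold change compares means, and the mean of HF long conceptuses was 146 ± 329 CPM (SD, n = 10) against 3.78 ± 1.85 CPM (SD, n = 10) in SF, while the medians were 5.12 and 3.83 CPM. TKDP4 had -2.0 ± 0.84 (interval -3.74 to -0.27; adjusted p = 0.127), and TKDP1 had -0.30 ± 0.29 (interval -0.89 to 0.30; adjusted p = 0.537) and was not called in any of 30 alternatives, with adjusted p of 0.114 to 0.674. So 1 of 3 genes was called lower here and 0 higher, with a background of 5.1% of 16330 genes called lower, 3.8% higher and 8.9% in either direction.

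The TKDP2 difference rested on few libraries and on the count model. Without HF long replicate 8 the log2 fold change against HF long was -3.55 and that against all HF was -3.00, and leaving out any 1 library left both called. With limma-voom in place of edgeR, TKDP2 had a log2 fold change of -2.55 against HF long (adjusted p = 0.176) and -2.02 against all HF (adjusted p = 0.22), and it was no longer called. Adding the recipient as a block to limma-voom, for conceptuses that shared a uterus, gave -2.44 (adjusted p = 0.23) and -1.98 (adjusted p = 0.296). Within the first sample sheet the value against all HF was -4.65 (adjusted p = 0.051) and that against HF long was -5.01 (adjusted p = 0.0294).

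HF short conceptuses did not differ from either other group by the test. SF against HF short gave -0.06 ± 0.31 for TKDP1 (interval -0.69 to 0.57), -1.69 ± 1.03 for TKDP4 (interval -3.81 to 0.42) and -1.77 ± 1.22 for TKDP2 (interval -4.28 to 0.74), with adjusted p of 0.976, 0.667 and 0.715. HF short against HF long gave -0.24 ± 0.34 for TKDP1 (interval -0.95 to 0.47), -0.31 ± 1.17 for TKDP4 (interval -2.72 to 2.10) and -3.50 ± 1.48 for TKDP2 (interval -6.55 to -0.46), with adjusted p of 0.937, 0.98 and 0.933. These comparisons called few genes at all: 1 of 16330 (0.00612%) in the first, where 1468 had an unadjusted p under 0.05, and 0 (0%) in the second, where 599 had. DESeq2 called 125 and 2 genes and limma-voom 1 and 0. The TKDP2 value of HF short against HF long was -1.78 without HF long replicate 8 and -1.0 with limma-voom, and its medians lay the other way, at 12.2 CPM in HF short and 5.12 CPM in HF long. The intervals of TKDP4 and TKDP2 are wide enough to hold several-fold differences.

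**Figure D2:**
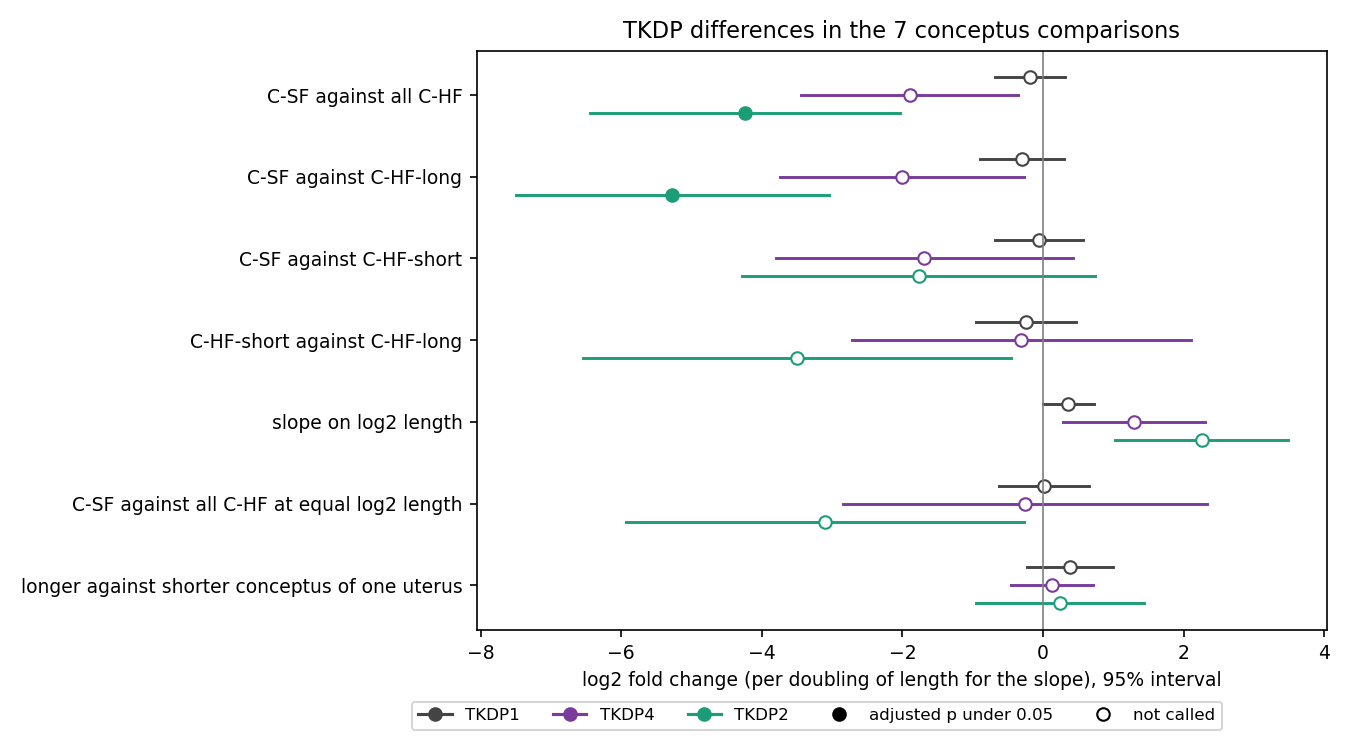
Log2 fold changes of the TKDP genes with their 95% intervals (horizontal lines) in each comparison of conceptuses, with the slope given per doubling of length. Filled points passed an adjusted p of 0.05, which TKDP2 did in SF conceptuses against all HF and against HF long ones.

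Length was then used directly in the 20 conceptuses that had one. Per doubling of length, TKDP1 changed by 0.36 ± 0.17 on the log2 scale (interval -0.01 to 0.72), TKDP4 by 1.29 ± 0.49 (interval 0.28 to 2.31) and TKDP2 by 2.26 ± 0.59 (interval 1.03 to 3.48). None was called (adjusted p = 0.451, 0.361 and 0.262 in edgeR's quasi-likelihood test), and 0 of 17196 genes were (0%), where 1905 had an unadjusted p under 0.05, DESeq2 called 52 and limma-voom 0. The slopes of TKDP4 and TKDP2 rested on the 17 cm conceptus: without it they were 0.45 and -0.01.

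The pattern over length differed among the genes. TKDP1 was low in most conceptuses under 2 cm and was 20000 to 45020 CPM from 2 cm on, with SF replicate 3, the longest SF conceptus, below the rest at 20000 CPM. TKDP4 had high and low values at the same lengths: SF replicates 4, 5 and 8 were all 4 cm long and had 343, 4901 and 384 CPM, and HF long replicates 3, 4, 10 and 1, whose lengths ran from 9 to 12 cm, had 460, 1211, 2409 and 518 CPM. TKDP2 was 3.32 to 5.32 CPM in those 4 HF long conceptuses, below the 18.9 to 27.8 CPM of HF short ones of 1.2, 1.5 and 2.8 cm. The other HF short conceptuses with a length, of 1.3, 3.4 and 6.9 cm, had 3.16, 2.65 and 5.22 CPM.

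At equal length, SF and HF conceptuses differed by 0.02 ± 0.31 in TKDP1 (interval -0.62 to 0.66), by -0.26 ± 1.24 in TKDP4 (interval -2.84 to 2.33) and by -3.10 ± 1.36 in TKDP2 (interval -5.93 to -0.27) on the log2 scale. Adjusted p-values in edgeR's quasi-likelihood test were 0.988, 0.957 and 0.363. DESeq2 called TKDP2 (adjusted p = 0.0304), and without HF long replicate 8 the edgeR value was -1.08. One gene in 17655 was called here (0.00566%), and 2134 had an unadjusted p under 0.05. Slopes fitted separately in SF and HF differed by -0.05 ± 0.32 for TKDP1, 0.40 ± 1.02 for TKDP4 and -0.80 ± 0.95 for TKDP2 (adjusted p = 0.998, 0.997 and 0.996), with 0 of 18321 genes called (0%) and 884 at an unadjusted p under 0.05.

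**Figure D3:**
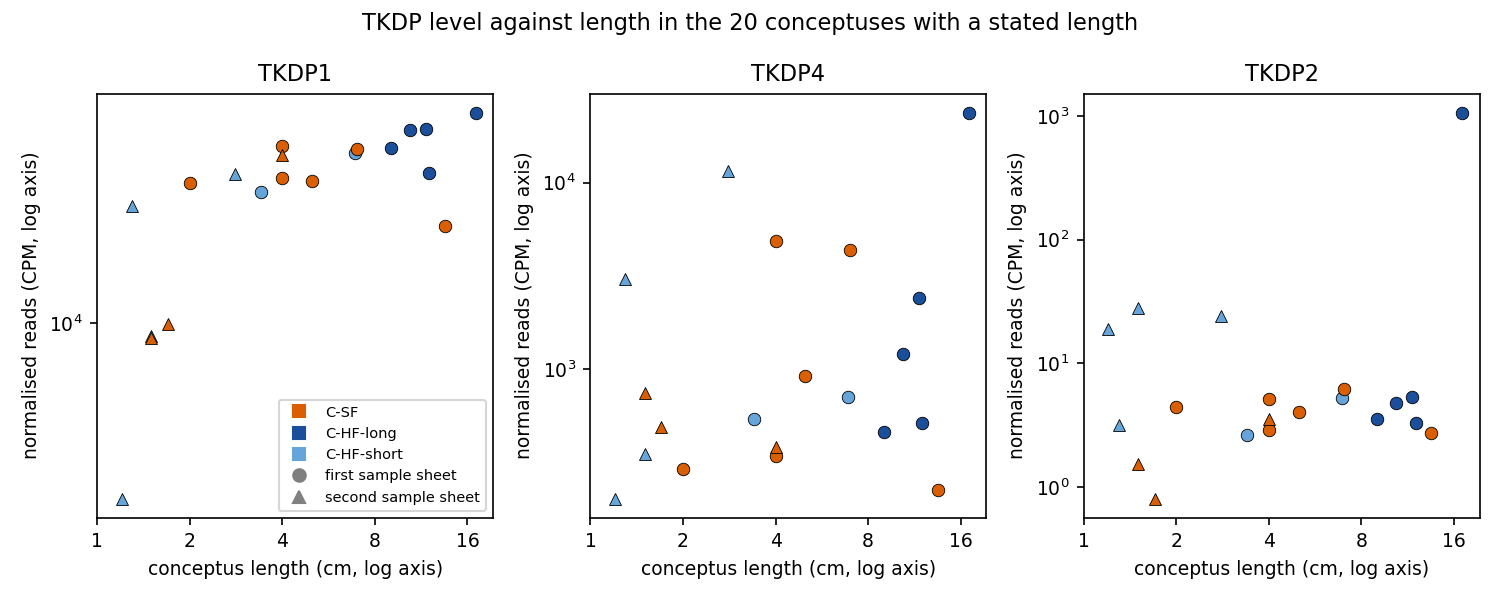
TKDP levels (CPM, log axis) against conceptus length (cm, log axis) in the 20 conceptuses with a stated length, coloured by group and shaped by sample sheet. The 4 lowest TKDP1 values belong to conceptuses of 1.2 to 1.7 cm, and the 17 cm conceptus stands alone at the top in TKDP2 at 1060 CPM.

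In 8 uteri, by the recipient numbers in the titles, a pair of conceptuses was sequenced, which allows the members to be compared with the uterus held constant. For 20 conceptus samples the description named another recipient than the title, so the pairs hold only if the titles are right. TKDP4 levels of uterine partners were close although they spanned the range of the study. Partners had 23690 and 11590 CPM in the uterus of the 17 cm conceptus, 4359 and 4901 CPM in that of SF replicates 6 and 5, and 2409 and 3055 CPM in that of HF long replicate 10 and HF short replicate 7. At the low end partners had 1211 and 717, 921 and 384, 460 and 543, 354 and 203.7, and 226.7 and 343 CPM, the longer conceptus first.

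TKDP4 of one conceptus therefore ran with that of its partner. Pearson's r over the 8 uteri was 0.945 on the log2 scale (exact permutation p = 0.000496, two-sided; 0.00149 adjusted over the 3 relations computed), and Spearman's rho was 0.952 (exact p = 0.00114; adjusted 0.00342). Without the 2 uteri farthest from the median r was 0.939, and leaving out each uterus in turn gave 0.908 to 0.961. It was 0.934 over the 5 uteri with both libraries on one sheet. The intraclass correlation was 0.94, against a median of 0.419 over 9898 genes, of which 0.384% reached the value of TKDP4. An r of at least 0.9 was held by 3.13% of these genes and an r of at least that of TKDP4 by 0.788%.

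TKDP2 of uterine partners was also alike, less closely. Pearson's r was 0.883 (exact permutation p = 0.00104; 0.00156 adjusted) and Spearman's rho was 0.857 (exact p = 0.0107; adjusted 0.016), with 0.704 without the 2 farthest uteri. Its intraclass correlation of 0.574 was reached by 31.3% of genes. The widest gap was in the uterus of the 17 cm conceptus, where TKDP2 was 1060 CPM in that one and 24.1 CPM in its partner of 2.8 cm, a ratio of 43.9. Their TKDP4 levels differed 2.04-fold.

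TKDP1 gave no firm relation between partners. Pearson's r was 0.854 (exact permutation p = 0.0691), Spearman's rho was 0.19 (exact p = 0.665) and r was -0.353 without the 2 farthest uteri. Without the uterus of HF short replicates 4 and 5, both low at 2845 and 9115 CPM, r was -0.09.

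The longer conceptus of a uterus was not called different from the shorter in any TKDP gene. In the 3 uteri whose libraries spanned the sheets the longer conceptus was on the first, so with the sheet as covariate the fitted differences rest on the 5 uteri with both on one sheet, and the 43.9-fold TKDP2 gap does not enter them. Log2 differences were 0.38 ± 0.28 for TKDP1 (interval -0.23 to 0.99), 0.13 ± 0.27 for TKDP4 (interval -0.46 to 0.72) and 0.25 ± 0.55 for TKDP2 (interval -0.95 to 1.44), each with an adjusted p of 1 in edgeR's quasi-likelihood test. In this comparison 0 of 15337 genes were called (0%), 335 had an unadjusted p under 0.05, DESeq2 called 2 and limma-voom 0. Without the sheet covariate, over all 8 uteri, the differences were 0.39 for TKDP1, 0.33 for TKDP4 and 0.76 for TKDP2, each with an adjusted p of 0.948. TKDP1 was higher in the longer conceptus in 5 of 5 HF uteri and in 0 of 3 SF uteri.

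**Figure D4:**
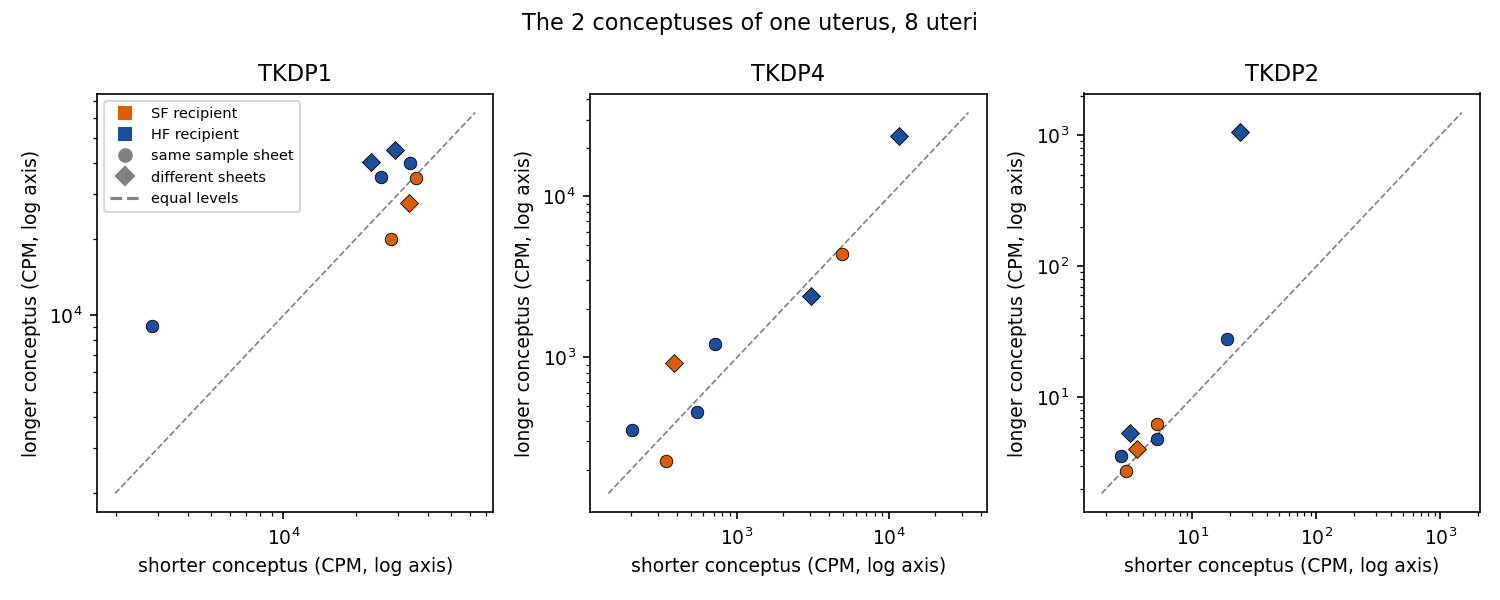
CPM (log axes) in the longer against the shorter conceptus of each of 8 uteri, coloured by recipient class, with diamonds where the libraries were on different sheets and a dashed line of equal levels. TKDP4 follows the line over its whole range, and TKDP1 lies above it in HF and below it in SF uteri.

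The members were related to each other over conceptuses. Only the first-listed library of each recipient was used (n = 19), so the second conceptus of a uterus did not enter. TKDP1 and TKDP4 had a Pearson's r of 0.667 (permutation p = 0.00042; 0.00063 adjusted over 3 relations) and a Spearman's rho of 0.87 (permutation p = 2e-05; adjusted 6e-05). TKDP2 and TKDP4 had an r of 0.731 (permutation p = 9e-05; adjusted 0.00027) and a rho of 0.718 (p = 0.00071; adjusted 0.00106). TKDP1 and TKDP2 had an r of 0.295 (permutation p = 0.183) and a rho of 0.667 (p = 0.00272; adjusted 0.00272). Without the 2 recipients farthest from the median these values of r were 0.706, 0.583 and 0.56, and within the 16 recipients of the first sheet they were 0.849, 0.798 and 0.581, while the second sheet held too few. Reads shared among close copies would link the members too, and this was not tested.

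Other transcripts with the most similar pattern over the 27 libraries were ranked by Pearson's r of log2 levels among 9897 genes, as a description, with libraries sharing depth and sheet. Closest to TKDP4 were the uncharacterised LOC515917 (r = 0.949), the lysozyme LYZ3 (0.949), the cannabinoid receptor CNR2 (0.947), the kinase TNIK (0.944) and the interleukin 17 receptor subunit IL17RE (0.941). LOC515917 ran from 10.6 to 4076 CPM and LYZ3 from 0.187 to 165 CPM. Closest to TKDP1 were the sugar-phosphate transporter SLC37A1 (0.896), the homeodomain factor PBX2 (0.884), SH3KBP1-2 (0.879), the acyl-CoA thioesterase ACOT13 (0.876) and the myosin light chain MYL12B (0.868). Closest to TKDP2 were the forkhead factor FOXO4 (0.913), the retinoid X receptor RXRA (0.889), the Notch ligand JAG1 (0.881), MPPE1 (0.878) and CCDC85C (0.872). JAG1 ranged from 0.899 to 65.6 CPM and FOXO4 from 0.225 to 119 CPM. By Spearman's rho the order was different for each member. PBX2 and MYL12B ranked 150 and 326 for TKDP1, where LIMK2 (0.899) was first, and JAG1 and CCDC85C ranked 405 and 301 for TKDP2, where MPPE1 (0.807) was first. LOC515917, CNR2 and LYZ3 were the closest 3 to TKDP4 by rho as well, while TNIK and IL17RE ranked 6 and 22. By r, the other TKDP genes were not among the closest 5 of any member, and IFNT2 had an r of 0.767 with TKDP1, 0.428 with TKDP4 and -0.03 with TKDP2.

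The 3 genes lie in one cluster on chromosome 13 of the ARS-UCD2.0 assembly, in the order TKDP1, TKDP4, TKDP2 among unnamed LOC genes and the Kunitz inhibitor PTI. The reads had been aligned to another build, so only the order is used. The gene table at hand does not describe the LOC genes. Whether any of them is a further TKDP copy, TKDP3 included, was not analysed here. LOC genes of this stretch were chosen after their values were seen, and not all of those given are high in conceptuses. LOC404061 had a median of 1.43 CPM there. LOC616039, with a median of 61.4 CPM and an r of -0.239 with TKDP4, is not followed further. LOC618696, on the TKDP1 side, had a median of 35120 CPM (4517 to 71240) and was first by read count in 16 of 27 conceptuses, with at most 2 reads in any endometrium. LOC404105, farther out on that side, had a median of 42.5 CPM and ran from 0.716 to 7101 CPM.

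These neighbours moved in opposite ways with TKDP4. LOC404105 had an r of 0.879 with TKDP4 and 0.765 with TKDP2, and LOC404061, next to TKDP2, had an r of 0.731 with TKDP4. LOC618696 had an r of -0.722 with TKDP4, -0.69 with TKDP2 and -0.12 with TKDP1. In HF long replicate 8, where TKDP4 was highest at 23690 CPM, LOC404105 was at its highest and LOC618696 at its lowest level. PTI and LOC404103, farther along on the TKDP2 side, went the other way by tissue: PTI was at most 0.0643 CPM in conceptuses with a median of 7.54 CPM in endometrium, and LOC404103 at most 0.18 CPM with a median of 24.3 CPM.

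**Figure D5:**
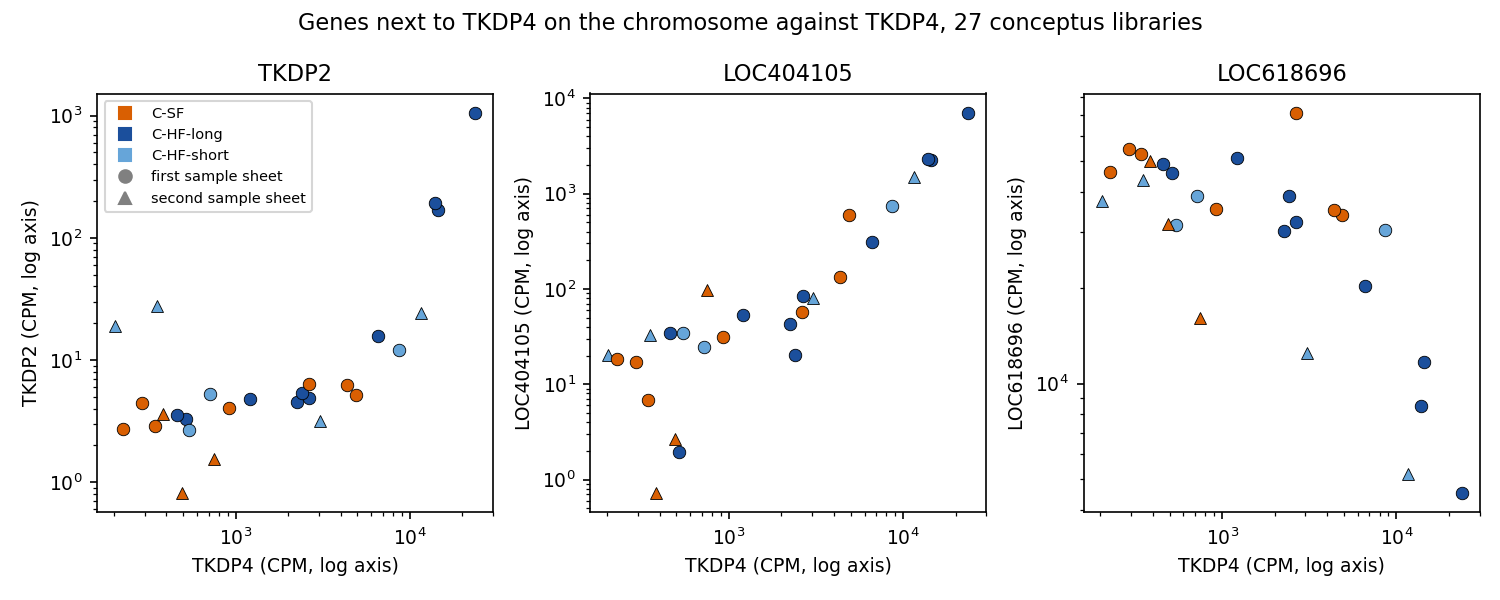
Levels of TKDP2, LOC404105 and LOC618696 (CPM, log axis), genes of the same chromosome 13 cluster, against TKDP4 (CPM, log axis) in each of 27 conceptus libraries, coloured by group and shaped by sample sheet. LOC404105 rises with TKDP4 to 7101 CPM, and LOC618696 is lowest where TKDP4 is highest.

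The wider pathway was read from lists of other Kunitz-type inhibitors, of serine proteases and their activators, of trophoblast secreted products and of trophectoderm transcription factors and keratins. In SF against all HF conceptuses, 1 of 10 tested Kunitz-type inhibitors was higher and 0 were lower, with a median log2 fold change of 0.262 (0.005 over all genes tested). Over all genes 3.64% were called higher and 4.16% lower, against which the counts of each list are to be read. The 1 was APLP2, a membrane protein related to the amyloid precursor, at 0.48 ± 0.13 (adjusted p = 0.0294). SPINT1, an inhibitor of membrane serine proteases, had -0.03 ± 0.09 (adjusted p = 0.857) and SPINT2, its relative, had 0.19 ± 0.15 (adjusted p = 0.466). Of 17 tested serine proteases 3 were higher and 0 lower, with a median of 0.014: the urokinase PLAU at 1.31 ± 0.25 (adjusted p = 0.00728), prothrombin F2 at 0.79 ± 0.16 and hepsin HPN at 0.92 ± 0.28. Of 10 tested trophoblast secreted products CGA, the alpha subunit of the glycoprotein hormones, was higher at 5.39 ± 0.96 (adjusted p = 0.00641) and 0 were lower, with a median of -0.216.

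Several trophectoderm transcription factors were called lower in SF. In SF against all HF, 5 of the 22 transcription factors and keratins were lower (4.16% over all genes) and 0 higher, with a median log2 fold change of -0.259, among them GATA3 at -1.16 ± 0.24 (adjusted p = 0.00968), DLX5 at -1.19 ± 0.25, MSX2 at -0.90 ± 0.20 and HAND1 at -3.05 ± 0.70. Values of 9 of the 22 were positive, none of them called. These were the keratins KRT18, KRT8, KRT19 and KRT7, at 0.37, 0.29, 0.25 and 0.12, and 5 transcription factors. EOMES, ASCL2, ELF5, CDX2 and ETS2 had 1.29, 0.91, 0.56, 0.32 and 0.05. In SF against HF long, 7 of 22 were lower (5.1% over all genes) and 0 higher, with a median of -0.441 (0.026 over all genes), where GATA3 had -1.35 ± 0.27, 0 of 10 Kunitz-type inhibitors were called, 2 of 18 serine proteases were higher and 1 lower, and CGA again was higher at 5.59 ± 1.12. In the other 5 comparisons 0 members of these 4 lists were called by edgeR's quasi-likelihood test.

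Cell type markers were read beside TKDP2. In SF against all HF conceptuses 2 of 13 trophectoderm markers were lower (GATA3 and DLX5) with a median log2 fold change of -0.386, while 6 of 13 had positive values. Against HF long 4 of 13 were lower (5.1% over all genes). In SF against all HF, 4.16% of all genes tested were called lower and 3.64% higher, against which the marker counts are to be read. All 5 tested epiblast markers had positive values, with a median of 1.11, and 1 of them was higher (TDGF1, 1.45 ± 0.42) and 1 of 11 endoderm markers was higher (HNF4A, 0.62 ± 0.15), while 0 of 4 mesoderm markers were called and 1 of 5 uterine markers was lower (DCN, adjusted p = 0.0433). TDGF1 does not tell the tissues apart, as it was 33.72 to 1049 CPM in endometrium against 2.685 to 130.7 CPM in conceptuses. DLX5 was higher in endometrium, at 39.97 to 73.44 CPM, than in conceptuses, at 2.37 to 21.21 CPM. In endometrium the epiblast markers summed to 39.55 to 1054 CPM. Summed epiblast markers were 139 to 404 CPM in SF, 106 to 188 CPM in HF long and 108 to 219 CPM in HF short conceptuses. Summed trophectoderm markers, to which KRT8 and KRT18 give the most reads, were 16330 to 43590, 20040 to 40720 and 11980 to 39320 CPM. Whether cell composition has a part in the TKDP2 difference was not tested.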

How the data were processed

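The deposited values are whole-number read counts per gene, not normalised, in 1 table of 52 libraries. The authors' tools included HISAT2, StringTie and edgeR on build UMD3.1, per the submitters' processing notes; no version, strand setting or rule for reads matching several genes is stated there. Libraries were made with a stranded mRNA kit, per the labels' protocols. Left out were 1020 empty lines. For 22 conceptus samples the description named another recipient (20) or length (2) than the title. Group, recipient and length were taken from titles, which equal the column names, so uterine pairs and slopes rest on the titles, and the sample sheet was read from descriptions by recipient number and length.

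Genes were filtered with filterByExpr (minimum count 10, minimum total 15), scaled by TMM and fitted in edgeR (quasi-likelihood test, sample sheet as covariate) with Benjamini-Hochberg adjustment over all genes tested (called at 0.05). Uterine pairs were fitted with the recipient as block. SE is the fold change over the root of F. CPM came from the counts with the same scaling, and correlations used log2(CPM + 1). For relations between the members, the first-listed library of each recipient was used. Conceptuses that share a recipient are not independent, so p-values without the block may be too small. Recipient numbers come from the titles and mark a shared uterus; the replicate numbers only name libraries. Named list genes were the called members with the smallest p, up to 4 per list. The genes and lists were chosen with earlier results of these data known. Gene order and names came from RefSeq's table of ARS-UCD2.0. On simulated counts with 200 genes changed by a log2 fold change of 2, 96.5% were recovered in SF against all HF and 85% in HF short against HF long. Of the calls 5.85% and 4.49% were false. The changed genes were not of low counts, and conceptuses sharing a uterus were simulated as independent, so the shares do not describe each TKDP gene. DESeq2 1.42.0, limma 3.58.1 and edgeR 4.0.16 were run in R 4.3.3. Alternatives were DESeq2, its size factors, limma-voom, no filter, scaling without RN7SL1 and RMRP or without the IFNT, PAG and TKDP genes, and no sheet covariate. Others were single sheets, 1 conceptus per recipient and group, recipient block and leaving out each library.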

Additional observations from a re-analysis of the deposited data

Results flagged for a closer look

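TKDP2 in HF long replicate 8, at 1060 CPM, stood apart from the other 9 HF long libraries: its gap to the next value made up 0.822 of the group's range, above Dixon's critical value of 0.466. It was the only one of 9 gene and group combinations to do so on the CPM scale, and 0 of 9 did so on the log2 scale. Chance alone gives about 1 such result in 20 tests of normally distributed values, and skewed levels give more.

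The TKDP1 difference between the longer and the shorter conceptus of a uterus went opposite ways by class. It was 0.24 to 1.68 on the log2 scale in the 5 HF uteri (mean 0.76 ± 0.55, SD) and -0.49 to -0.03 in the 3 SF uteri (mean -0.27 ± 0.23, SD), a difference of 1.03. An exact permutation test of the classes over the 8 uteri, two-sided and run after the pattern had been seen, gave p = 0.0357 and 0.107 when adjusted over the 3 TKDP genes, and it did not pass. The same differences were 1.29 for TKDP2 (exact p = 0.214) and 0.23 for TKDP4 (exact p = 0.821). Of the 5 HF uteri 4 paired a long with a short conceptus, and 3 of all 8 pairs spanned the sample sheets.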

How the results depend on the processing

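TKDP2 was called lower in SF against HF long conceptuses in 28 of 30 alternatives and in SF against all HF in 33 of 37. Of these alternatives 20 and 27 only left out 1 library, and all of those kept the call. Among the other 10 of each comparison TKDP2 was called in 8 against HF long and in 6 against all HF. It was lost with limma-voom (-2.55, adjusted p = 0.176; -2.02, adjusted p = 0.22) and with the recipient as replicate block (-2.44 and -1.98). Against all HF it was also lost with 1 conceptus per recipient and group (-4.40, adjusted p = 0.0664) and on the first sheet alone (-4.65, adjusted p = 0.051). In the former setting the 4 HF recipients with a long and a short conceptus kept both, so shared uteri were not fully removed. TKDP1 and TKDP4 were called in no alternative of any comparison. The slope of TKDP2 was called with length in cm (0.50 per cm, adjusted p = 0.0309). The cause of these changes was not tested.

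Counts of called genes moved more. DESeq2 called 1925 genes in SF against all HF, 2217 against HF long, 125 against HF short, 351 at equal length, 52 for the slope, 2 in HF short against HF long and 2 in the uterine pairs. With the recipient as replicate block 270, 424, 0 and 0 genes were called in the first 4 of these comparisons, and against limma-voom without it the block changed no call of a TKDP gene. With 1 conceptus per recipient and group 520 genes were called against all HF, 685 against HF long and 0 at equal length. Limma-voom called 934 against HF long and 4 at equal length. Without the sheet covariate 19 were called against HF short, 400 for the slope and 0 at equal length, and on 1 sheet 0 against HF short and 0 at equal length. DESeq2 size factors gave 13 against HF short and scaling without the IFNT, PAG and TKDP genes 7, length in cm 5 for the slope, and no filter on low counts 3 for the slope and 2 in the pairs. Leaving out 1 library gave 552 (SF replicate 2) to 1513 (HF short replicate 4) genes against all HF, 629 (HF long replicate 9) to 2110 (HF long replicate 1) against HF long, 0 to 47 against HF short, 0 to 37 at equal length and 0 to 1 for the slope.

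Values near 0 changed sign. TKDP1 against HF short was 0.047 with limma-voom, 0.13 without the sheet covariate, 0.10 on the second sheet and up to 0.12 with a library left out (from -0.41). At equal length TKDP1 was -0.43 with 1 conceptus per recipient and group, -0.19 on the first sheet and -0.28 to 0.21 with a library left out. TKDP4 was 0.31, 1.46 and -0.71 to 0.56 in these settings. HF short against HF long gave 0.031 for TKDP1 with 1 conceptus per recipient and group. For TKDP4 it gave -0.92 to 0.18 with a library left out. In the uterine pairs TKDP1 was -0.10 with no replicate block and TKDP4 -0.058 to 0.29 with a uterus left out. The slope of TKDP2 was -0.012 to 2.81 with a library left out.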
